A study of Homo sapiens with 12 samples.

Results

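The subject is a module of 42 genes that act in G2 and mitosis, measured in the A549 line, which derives from a human lung adenocarcinoma. The members were chosen by name, as the cyclins, kinases, checkpoint proteins, kinetochore and centromere proteins, condensins, spindle motors and cytokinesis factors listed here, together with the transcription factor FOXM1. Earlier results of these data were known when they were chosen. All 42 symbols matched 1 row each of a table of 60617 genes, and all 42 passed the filter on low counts that left 18524 genes to test. The 12 libraries fall into 4 groups of 3. In the combined group, YTHDF1 was knocked out and ARID1A was silenced with small interfering RNA. The siARID1A cells had silenced ARID1A and an intact YTHDF1 gene, the YTHDF1 KO cells had the knockout alone, and the WT cells had neither change. YTHDF1 is a cytoplasmic reader of N6-methyladenosine in RNA, and ARID1A is a subunit of the SWI/SNF chromatin remodeller. No label names a control small interfering RNA, so in comparisons with cells that had none, silenced ARID1A cannot be told apart from the transfection itself. No label says whether the YTHDF1 KO cells were a clone or a pool. The sample titles call the YTHDF1 change a knockdown, where the genotype labels call it a knockout. The titles call libraries of 1 group biological replicates without naming separate cultures, so the p-values measure the spread between these libraries.

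G2/M genes share a pattern of transcription in which they are held low in G0 and G1 and reach their peak as cells prepare to divide. Much of this control passes through promoter elements named the cell cycle genes homology region (CHR) and the CCAAT box. The CHR is bound by the MuvB core, which represses as part of the DREAM complex in resting cells and activates with B-MYB and FOXM1 in G2. The CCAAT box is bound by NF-Y. Cyclin B with CDK1 drives entry into mitosis, the spindle checkpoint restrains the anaphase-promoting complex until kinetochores are attached, and condensins, kinesins and cytokinesis factors separate chromosomes and cells. In cell lines the summed level of these transcripts is widely used as an index of proliferation.

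The promoters of 8 members show the elements, and were chosen as known CHR genes (CCNB2, PLK1, CDC25C), as members with large changes (BUB1B, CENPA, MKI67) and as the members that were higher with YTHDF1 KO (CDC25B, ECT2). SMC2, BUB1 and NCAPH, whose largest falls against WT exceeded those of BUB1B, CENPA and MKI67, are not shown. All 8 promoters hold a CHR match, which 7 of the 35 members with an annotated promoter lacked. Each stretch runs from 120 bases before to 30 bases after an annotated transcript start of RefSeq on GRCh38.p14, and capitals mark CHR and CCAAT box matches on either strand.
CCNB2: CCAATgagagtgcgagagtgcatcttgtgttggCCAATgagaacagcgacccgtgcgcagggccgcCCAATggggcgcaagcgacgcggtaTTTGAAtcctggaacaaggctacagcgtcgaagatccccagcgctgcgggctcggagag
PLK1: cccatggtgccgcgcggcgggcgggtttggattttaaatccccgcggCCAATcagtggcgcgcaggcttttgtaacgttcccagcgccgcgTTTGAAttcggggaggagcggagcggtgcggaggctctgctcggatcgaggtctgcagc
CDC25C: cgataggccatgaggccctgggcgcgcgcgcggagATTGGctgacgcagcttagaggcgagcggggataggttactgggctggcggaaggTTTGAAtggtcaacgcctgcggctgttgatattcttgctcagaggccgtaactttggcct
BUB1B: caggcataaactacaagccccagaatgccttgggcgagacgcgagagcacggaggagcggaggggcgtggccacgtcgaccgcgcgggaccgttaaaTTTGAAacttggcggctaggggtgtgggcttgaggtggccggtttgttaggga
CENPA: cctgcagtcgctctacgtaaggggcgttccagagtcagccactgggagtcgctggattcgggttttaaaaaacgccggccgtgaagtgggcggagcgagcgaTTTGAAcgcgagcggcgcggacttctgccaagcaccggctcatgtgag
MKI67: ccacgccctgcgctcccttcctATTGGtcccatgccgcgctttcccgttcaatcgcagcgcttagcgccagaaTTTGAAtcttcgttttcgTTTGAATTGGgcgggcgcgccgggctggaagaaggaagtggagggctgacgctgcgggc
CDC25B: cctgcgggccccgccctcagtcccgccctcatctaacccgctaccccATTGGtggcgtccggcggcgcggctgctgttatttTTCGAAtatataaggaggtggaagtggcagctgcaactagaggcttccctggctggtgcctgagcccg
ECT2: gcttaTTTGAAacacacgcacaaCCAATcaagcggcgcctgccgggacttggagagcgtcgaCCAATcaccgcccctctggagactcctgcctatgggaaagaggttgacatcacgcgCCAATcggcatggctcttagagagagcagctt
In that order they lie at chr15:59105026-59105175, plus strand, chr16:23678769-23678918, plus strand, chr5:138331775-138331924, minus strand, chr15:40160949-40161098, plus strand, chr2:26785936-26786085, plus strand, chr10:128126394-128126543, minus strand, chr20:3796190-3796339, plus strand and chr3:172750606-172750755, plus strand. The first base of the CHR match was 29 bases before the start in CCNB2 and PLK1, 30 before it in CDC25C, 23 in BUB1B and 18 in CENPA. MKI67 held 2 CHR matches, 47 and 29 bases before the start, and the second overlaps a CCAAT box in the run TTTGAATTGG. In CDC25B the match was the other spelling, TTCGAA, 38 bases before the start of the 3rd of its 4 annotated starts. ECT2 differed in placement, with its CHR match 115 bases before the start and another 35 bases after it, beyond the stretch shown.

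The search covered 250 bases before to 50 bases after each start on both strands, for TTTGAA or TTCGAA as the CHR and for CCAAT as the CCAAT box. Of the 42 members, 35 had an entry, with 48 starts between them, and the other 7 (TPX2, AURKA, TTK, FOXM1, BUB3, BIRC5 and UBE2C) had none. A CHR stood in 31 of the 48 promoters (64.6%), against 16.4% of all 35116 promoters of the same length. A CCAAT box stood in 30 of the 48 (62.5%), against 34.6% of all promoters. Both elements stood in 22 of the 48 (45.8%), against 6.38% of all. A CHR within 50 bases of the start was found in 24 of the 48 (50%), against 5.01% of all promoters. The 7 genes in whose windows neither CHR spelling was found were CCNA2, CCNB1, AURKB, CENPE, NCAPH, KIF20A and KIF2C. These matches are letters in the reference sequence and no binding was measured.

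**Figure D1:**
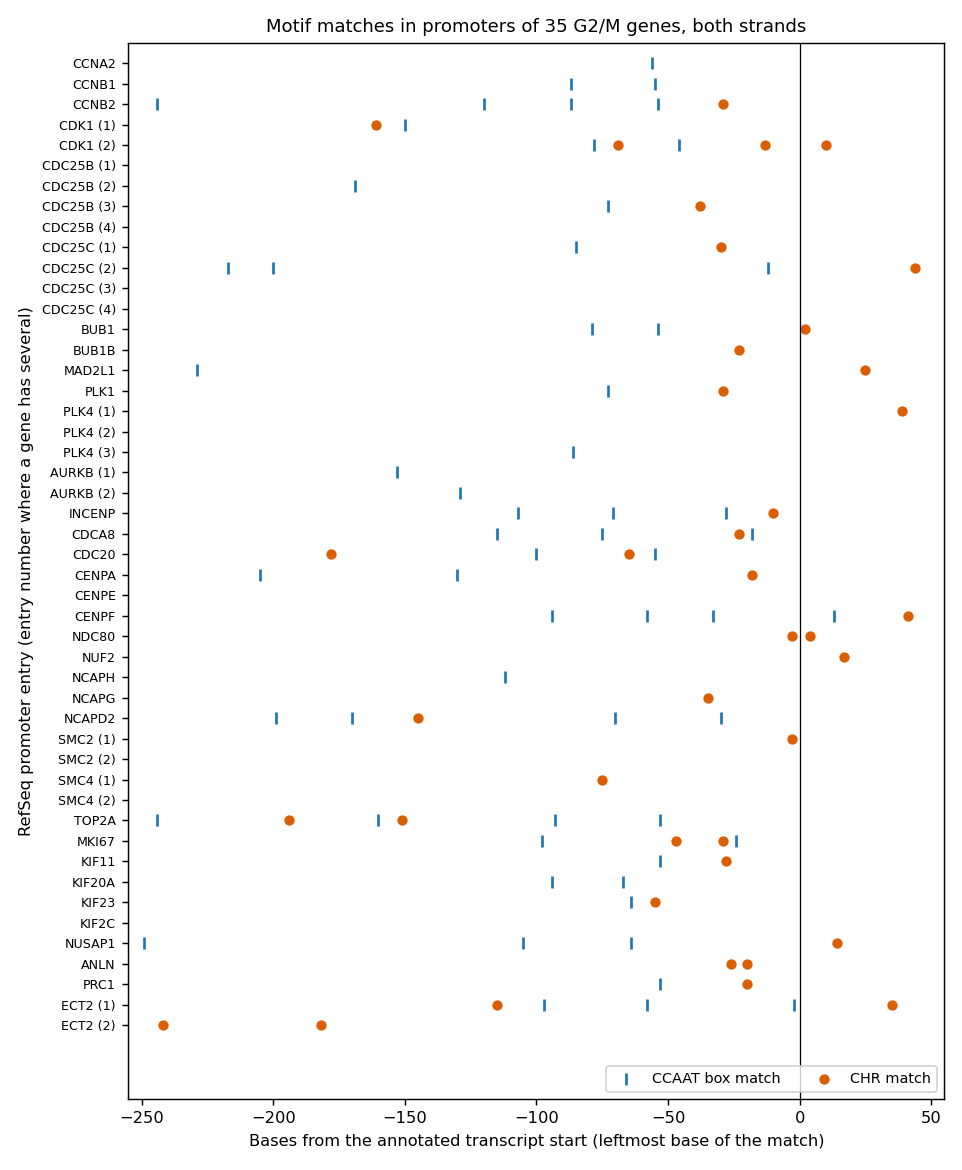
Positions of CHR matches (orange points) and CCAAT box matches (blue bars) in 48 promoter entries of 35 G2/M genes, in bases from the annotated transcript start (vertical line). CHR matches gather close to the start, with 24 of 48 entries holding one within 50 bases of it.

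The depth was 30220717 to 45042635 counts a library, and the 42 members took 0.3662% to 0.6413% of a library's counts. WT replicate 2 stood apart from WT replicates 1 and 3 (chi-square per degree of freedom 58.08 and 55.99, against 13.91 between those and 3.471 to 14.38 within the other groups), so counts are also given without it. YTHDF1 averaged 30.9 ± 1.11 CPM in the combined group, 24.9 ± 2.08 in YTHDF1 KO and 88.2 ± 2.57 in WT (SD, n = 3 each), so its transcript was still counted in both groups with the knockout. ARID1A averaged 54.2 ± 6.51 CPM in the combined group, 42.5 ± 2.12 in siARID1A, 161 ± 12 in YTHDF1 KO and 164 ± 14.1 in WT. ARID1A thus stood at 33.8% of YTHDF1 KO in the combined group and at 25.9% of WT in siARID1A, and it was higher in the combined group than in siARID1A (log2 fold change 0.35, SE 0.11, adjusted p = 0.00214). The epithelial markers of A549 moved with the YTHDF1 groups: 7 of 10 were lower than in WT in the combined group, 2 in siARID1A and 8 in YTHDF1 KO, with 1, 4 and 1 higher. KRT8 averaged 1805 CPM in the combined group, 3619 in siARID1A, 1484 in YTHDF1 KO and 4799 in WT, and KRT19 was near 0 in WT (0.0314 CPM). The part of these markers' changes in those of the module was not tested. The summed level of 14 markers of blood, vessel, stromal, red and alveolar type II cells ran from 21.6 to 38.7 CPM in the combined group, 21.6 to 42 in siARID1A, 33.2 to 38.3 in YTHDF1 KO and 32.6 to 59.3 in WT. Most of it was COL1A1, and from 3 to 10 of the 14 were at 0 in a library.

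Most of the module was lower than in WT in the combined group, in siARID1A and in YTHDF1 KO. Each library's median over the members of log2(CPM over the WT mean) was -0.62, -0.42 and -0.57 in the combined group, -0.53, -0.55 and -0.76 in siARID1A, -0.31, -0.25 and -0.31 in YTHDF1 KO, and 0.0078, -0.003 and -0.012 in WT. None of the 9 changed libraries overlapped WT in this median. The same median over all genes tested did not overlap WT either, but moved less. It ran from -0.0234 to -0.012 in the changed libraries and from -0.0058 to 0.0065 in WT. In the 3 siARID1A libraries all 42 members lay below the WT mean, in the combined group 39 to 40 did, and in YTHDF1 KO 36 to 37 did. The share of all genes below the WT mean was not counted for single libraries. By the log2 fold change of each group against WT, 41 of 42 members were below 0 in the combined group. In siARID1A 42 were, and in YTHDF1 KO 37 were. Of 18524 genes tested, 9331, 9418 and 9445 were below 0 in these groups. The summed CPM of the module was 4290, 4854 and 4560 in the combined group, 4425, 4282 and 3649 in siARID1A, 5687, 5690 and 5793 in YTHDF1 KO, and 6501, 6388 and 6441 in WT. In such bulk samples, fewer cells in G2 and mitosis cannot be told apart from less RNA of these genes in each cell.

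**Figure D2:**
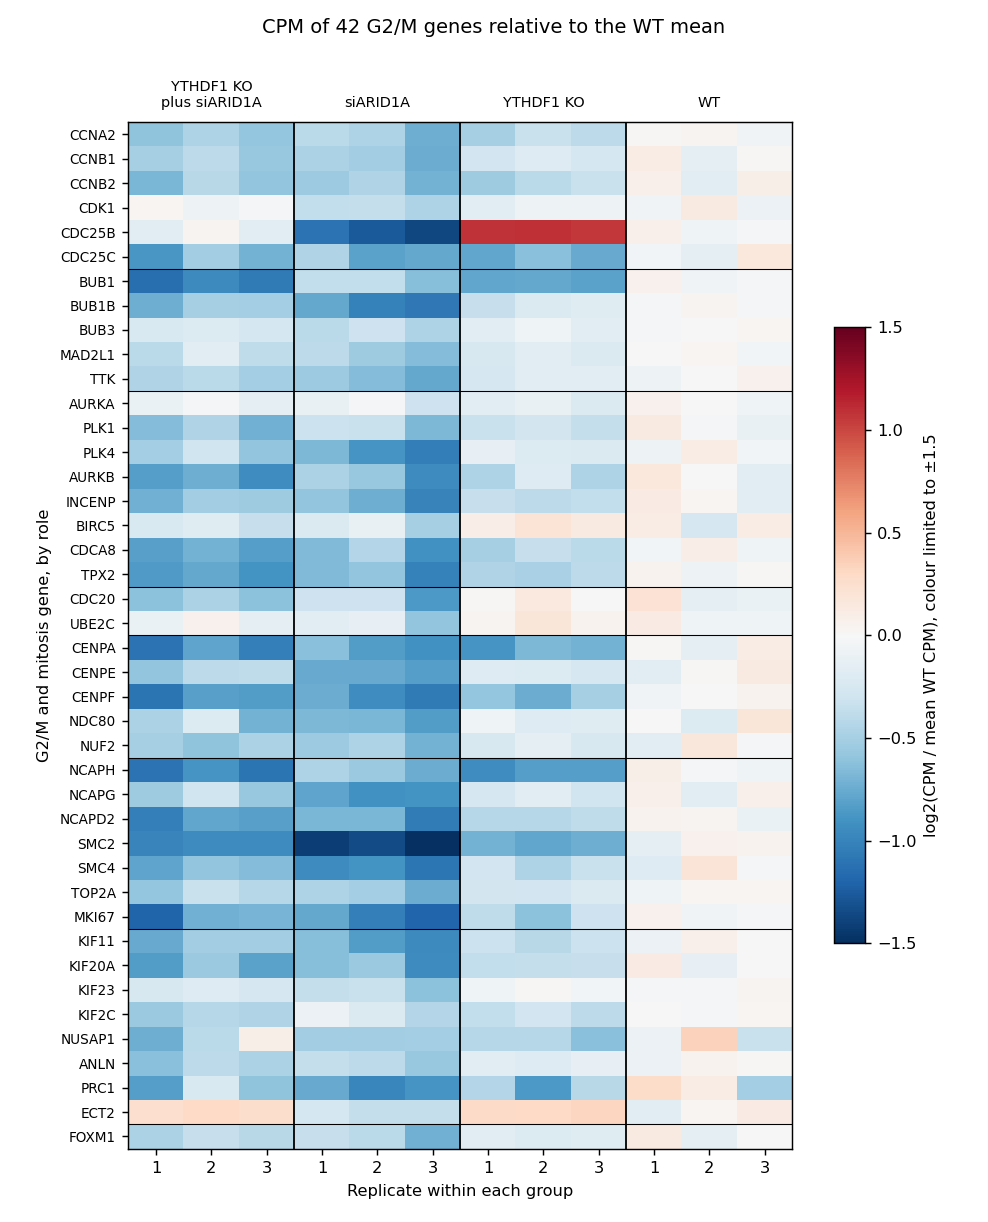
Colour gives log2 of CPM over the mean CPM of WT, limited to 1.5 either way, for 42 G2/M genes (down, grouped by role) in 12 libraries (across, by group). Blue covers all members in the siARID1A libraries, while CDC25B is red in YTHDF1 KO and ECT2 is red in YTHDF1 KO and in the combined group.

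In YTHDF1 KO cells many members were lower than in WT, and 2, CDC25B and ECT2, were higher. A member was called changed where the adjusted p of edgeR's quasi-likelihood test, with Benjamini-Hochberg adjustment over all genes tested, was under 0.05. By that rule 25 of 42 members were lower than in WT (20.8% of all genes tested were) and 2 were higher (19.6% of all genes). The median log2 fold change was -0.29 over the members and -0.012 over all genes. All 7 genes of condensins and chromosome structure fell, as did 4 of 6 cyclin and CDC25 genes, 3 of 5 checkpoint genes, 5 of 8 kinase and passenger complex genes, 3 of 5 centromere genes and 3 of 8 spindle genes. Neither of the genes of ubiquitin transfer was called, nor was FOXM1. Of the lower members, BUB1, CENPA and NCAPH lie on chromosome 2 and SMC2 on chromosome 9. The medians of these chromosomes were -0.405 and -0.361 in this comparison. Among the 38 members of other chromosomes 21 were lower (17.1% of all genes outside these chromosomes). Of the 27 calls, 19 were kept in every alternative run, and that of CENPE, a centromere gene, was lost in 13. Without WT replicate 2, 23 members were lower. Of all genes called, 48.5% were higher, and 61.2% with libraries scaled to their totals alone, under which 19 members were lower and 3 higher.

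Nearly the whole module was lower in siARID1A cells. With siARID1A, 40 of 42 members were lower than in WT (23% of all genes were), and none was higher (22.1% of all genes). The median was -0.62 over the members and -0.011 over all genes. The 2 members not called were AURKA (-0.14, adjusted p = 0.113) and NUSAP1 (-0.53, adjusted p = 0.176). Without WT replicate 2 the count was again 40, and without siARID1A replicate 3, the library with the lowest summed level of the module, it was 37.

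In the combined group 35 of 42 members were lower than in WT (25.9% of all genes were), and ECT2 alone was higher (25.6% of all genes). The median was -0.53 over the members and -0.0055 over all genes. The 6 members not called were CDK1, CDC25B, AURKA, UBE2C, NUSAP1 and PRC1. Of all genes called, 49.7% were higher, and 63.4% with libraries scaled to totals. That scaling moved the median of all genes to 0.13 and left the members' median relative to it at -0.528, with 31 members lower. Without WT replicate 2, 35 members were lower. The 3 comparisons share the WT libraries.

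**Figure D3:**
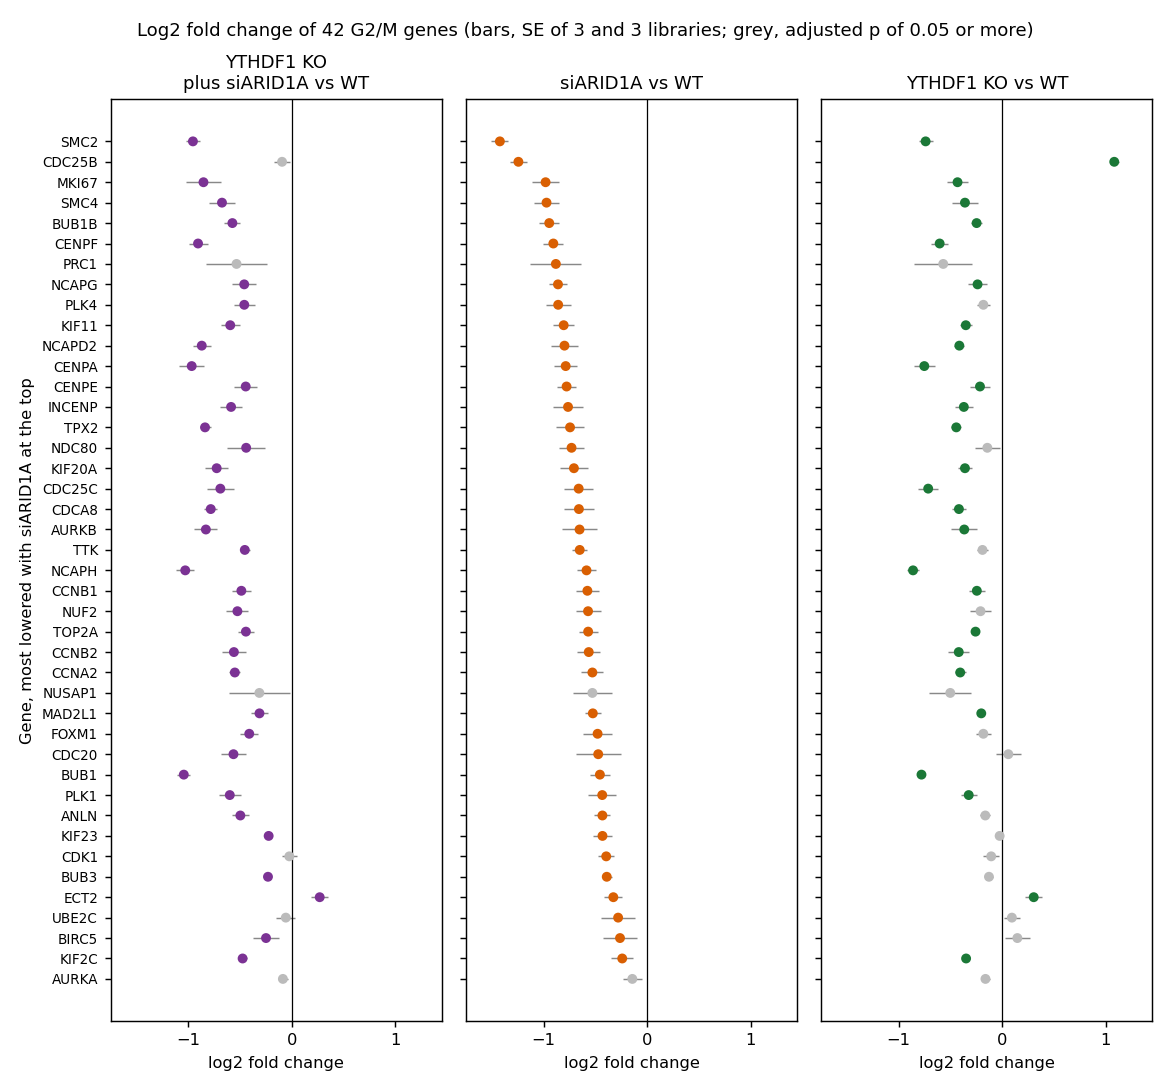
Log2 fold change of each of 42 G2/M genes against WT in the combined group, siARID1A and YTHDF1 KO (left to right), with bars for the SE from 3 and 3 libraries and grey points for an adjusted p of 0.05 or more. All points of siARID1A lie left of 0, and CDC25B lies at -0.095 in the combined group, -1.24 with siARID1A and 1.08 with YTHDF1 KO.

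Among the cyclins and their kinase, CCNB1 (ENSG00000134057, chr5:69167010-69178245), a B cyclin that activates CDK1, was lower in all 3 changed groups. CCNB1 had 175, 189 and 167 CPM in the combined group, 178, 173 and 148 in siARID1A, 204, 216 and 208 in YTHDF1 KO, and 268, 226 and 251 in WT. No library of a changed group reached the WT range. The change against WT was -0.49 on the log2 scale in the combined group (SE 0.088, adjusted p = 1.05e-05), -0.58 in siARID1A (SE 0.11, adjusted p = 1.52e-06) and -0.25 in YTHDF1 KO (SE 0.076, adjusted p = 0.0134). The last call was lost without WT replicate 1 (adjusted p = 0.08), without YTHDF1 KO replicate 1 (0.0602) or 3 (0.0504), and with library totals (0.0923). CCNB2, the other B cyclin, and CCNA2, the cyclin of S phase and G2, fell in all 3 groups as well. CCNB2 averaged 60.9 ± 5.76 CPM in the combined group, 60.8 ± 5.25 in siARID1A, 67.1 ± 4.52 in YTHDF1 KO and 89.9 ± 8.83 in WT (SD, n = 3). CCNA2 averaged 55.5 ± 3.05 CPM in the combined group, 56.5 ± 6.71 in siARID1A, 61.4 ± 3.3 in YTHDF1 KO and 81.4 ± 2.79 in WT.

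CDK1 (ENSG00000170312, chr10:60778331-60794852), the kinase of mitotic entry, behaved differently from its cyclins. CDK1 had 111, 103 and 106 CPM in the combined group, 84.1, 84.4 and 78.8 in siARID1A, 96, 103 and 103 in YTHDF1 KO, and 105, 119 and 102 in WT. All 3 siARID1A libraries lay below the WT range, while the combined group and YTHDF1 KO overlapped WT. CDK1 fell in siARID1A (log2 fold change -0.39, SE 0.075, adjusted p = 5.3e-05) and was not called in the combined group (-0.025, adjusted p = 0.789) or in YTHDF1 KO (-0.11, adjusted p = 0.235). Its small difference in the combined group was above 0 with library totals (0.11) and without WT replicate 2 (0.052).

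The CDC25 phosphatases remove the inhibitory phosphates from CDK1, and the 2 in the module moved apart with YTHDF1 KO. CDC25B had 261, 303 and 264 CPM in the combined group, 136, 123 and 114 in siARID1A, 623, 633 and 614 in YTHDF1 KO, and 311, 282 and 291 in WT. The 3 YTHDF1 KO libraries lay far above WT, the 3 siARID1A libraries far below it, and the combined libraries overlapped WT. CDC25B (ENSG00000101224, chr20:3786772-3806121) thus stood at 212% of WT in YTHDF1 KO (log2 fold change 1.08, SE 0.043, adjusted p = 1.71e-11), at 42.2% in siARID1A (log2 fold change -1.24, SE 0.084, adjusted p = 3.06e-12) and at 93.6% in the combined group (log2 fold change -0.095, SE 0.08, adjusted p = 0.309). It was the member with the largest rise and, after SMC2, the largest fall against WT. CDC25C had 7.81, 9.94 and 8.74 CPM in the combined group, 10.5, 8.24 and 8.43 in siARID1A, 8.35, 9.27 and 8.48 in YTHDF1 KO, and 13.9, 13.1 and 16 in WT. All 9 libraries of the changed groups lay below WT for CDC25C (ENSG00000158402, chr5:138285265-138338355), whose log2 fold change was -0.69 in the combined group, -0.66 in siARID1A and -0.72 in YTHDF1 KO (adjusted p = 6.38e-05, 0.000154 and 6.04e-05).

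The spindle checkpoint genes were lower in siARID1A and in the combined group, and BUB1 was higher in siARID1A than in YTHDF1 KO where BUB1B was lower. BUB1 had 47.9, 54 and 50.1 CPM in the combined group, 80.8, 80.7 and 67 in siARID1A, 61.1, 61.6 and 59.7 in YTHDF1 KO, and 109, 101 and 104 in WT. BUB1 (ENSG00000169679, chr2:110637698-110678114), a kinase of kinetochores and centromeres, lay below WT in all 9 changed libraries and was lowest in the combined group (log2 fold change -1.04, SE 0.061, adjusted p = 2.62e-11). It fell less in siARID1A (log2 fold change -0.46, SE 0.10, adjusted p = 2.28e-05) than in YTHDF1 KO (log2 fold change -0.78, SE 0.037, adjusted p = 6.37e-09). BUB1 lies on chromosome 2, whose genes were low as a whole in YTHDF1 KO, and relative to that chromosome's median log2 fold change it stood at -0.462 in siARID1A and -0.376 in YTHDF1 KO, the opposite order. BUB1B had 49.9, 58.5 and 57.9 CPM in the combined group, 48.4, 41 and 39.2 in siARID1A, 65, 70.9 and 72.8 in YTHDF1 KO, and 81.2, 84.8 and 81.8 in WT. BUB1B (ENSG00000156970, chr15:40161023-40221136), which encodes the BubR1 protein of the mitotic checkpoint complex, was lowest in siARID1A (log2 fold change -0.95, SE 0.094, adjusted p = 1.54e-09), followed by the combined group (log2 fold change -0.57, SE 0.077, adjusted p = 2e-06) and YTHDF1 KO (log2 fold change -0.25, SE 0.053, adjusted p = 0.0165). Its call in YTHDF1 KO was lost without YTHDF1 KO replicate 1 (adjusted p = 0.1) and with library totals (0.144). MAD2L1, BUB3 and TTK, which encode checkpoint proteins of the same pathway, were called lower in siARID1A and in the combined group. With library totals the combined-group calls of BUB3 (-0.095, adjusted p = 0.24) and MAD2L1 (-0.18, adjusted p = 0.071) were lost. Of these only MAD2L1 was called in YTHDF1 KO (-0.20, adjusted p = 0.0429), and that call was lost without any 1 of WT replicates 1 and 2 or of the 3 YTHDF1 KO libraries (adjusted p = 0.0621 to 0.131).

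Of the mitotic kinases, PLK1 (ENSG00000166851, chr16:23677656-23690367), which acts from centrosome maturation to cytokinesis, fell in all 3 groups. PLK1 had 108, 124 and 103 CPM in the combined group, 135, 135 and 107 in siARID1A, 134, 139.6 and 132 in YTHDF1 KO, and 186, 166 and 157 in WT. The WT libraries were the highest, and siARID1A and YTHDF1 KO overlapped each other. The log2 fold change against WT was -0.60 in the combined group (SE 0.11, adjusted p = 3.74e-06), -0.43 in siARID1A (SE 0.13, adjusted p = 0.000279) and -0.32 in YTHDF1 KO (SE 0.076, adjusted p = 0.00443). PLK4, the kinase of centriole duplication, was at 27.4 ± 2.92 CPM in the combined group, 20.8 ± 2.67 in siARID1A, 33.2 ± 1.14 in YTHDF1 KO and 37.6 ± 2.62 in WT, and was called in siARID1A (-0.86, adjusted p = 1.18e-07) and in the combined group (-0.46, adjusted p = 0.00029). AURKA, the kinase of centrosomes and spindle poles, had 138 ± 5.09 CPM in the combined group, 133 ± 13.4 in siARID1A, 131 ± 4.54 in YTHDF1 KO and 147 ± 6.54 in WT, and no call against WT. TPX2, which activates AURKA on the spindle, fell in each group, with log2 fold changes of -0.84 in the combined group, -0.74 in siARID1A and -0.44 in YTHDF1 KO (adjusted p = 6.41e-09, 8.32e-08 and 0.000107).

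The chromosomal passenger complex, in which AURKB works with INCENP, borealin (CDCA8) and survivin (BIRC5), did not move as a unit in YTHDF1 KO. AURKB had 37.4, 40 and 34.7 CPM in the combined group, 47.8, 44.6 and 34.5 in siARID1A, 48.3, 57.9 and 48.3 in YTHDF1 KO, and 73.9, 66.3 and 59.1 in WT. AURKB (ENSG00000178999, chr17:8204733-8210600) lay below WT in all 9 changed libraries, and its log2 fold change was -0.83 in the combined group, -0.65 in siARID1A and -0.37 in YTHDF1 KO (adjusted p = 1.06e-06, 3.44e-05 and 0.00802). The call in YTHDF1 KO was lost without WT replicate 1 (adjusted p = 0.0549). INCENP and CDCA8 fell in all 3 groups. BIRC5 averaged 133 ± 7.99 CPM in the combined group, 132 ± 17.8 in siARID1A, 175 ± 6.67 in YTHDF1 KO and 158 ± 21.7 in WT. Its log2 fold change in YTHDF1 KO was 0.15 (adjusted p = 0.239), and its calls in siARID1A (-0.26, adjusted p = 0.0285) and in the combined group (-0.25, adjusted p = 0.0314) were both lost without WT replicate 1 (adjusted p = 0.125 and 0.141) or WT replicate 3 (0.124 and 0.139). In siARID1A its value was -0.16 (adjusted p = 0.188) without siARID1A replicate 3. In the combined group the call was also lost without combined replicate 1 (0.0658) or 3 (0.135).

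CDC20, which activates the anaphase-promoting complex and is the checkpoint's target, and UBE2C, its ubiquitin-conjugating enzyme, were the role with no fall in YTHDF1 KO. CDC20 had 99.5, 109.6 and 99.2 CPM in the combined group, 122, 123 and 83.7 in siARID1A, 154, 168 and 152 in YTHDF1 KO, and 177, 137 and 142 in WT. The YTHDF1 KO libraries lay within the WT range, and the other 6 changed libraries lay below it. CDC20 (ENSG00000117399, chr1:43358955-43363203) had a log2 fold change of -0.56 in the combined group (SE 0.12, adjusted p = 0.00167) and of -0.47 in siARID1A (SE 0.22, adjusted p = 0.00701), which was -0.31 (adjusted p = 0.00914) without siARID1A replicate 3. UBE2C was called in siARID1A alone (-0.28, adjusted p = 0.0213). That call was lost without siARID1A replicate 3 (-0.15, adjusted p = 0.185) or WT replicate 1 (adjusted p = 0.106).

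CENPA, the histone H3 variant that marks centromeres, was lower in all 3 changed groups, whose libraries overlapped each other. CENPA had 20.4, 25.4 and 21.4 CPM in the combined group, 28.4, 24.5 and 23.4 in siARID1A, 23.7, 27.5 and 26.9 in YTHDF1 KO, and 44.4, 39.8 and 47.6 in WT. All 9 libraries lay below WT. CENPA (ENSG00000115163, chr2:26764289-26801067) had log2 fold changes of -0.97 in the combined group, -0.79 in siARID1A and -0.75 in YTHDF1 KO (SE 0.12, 0.11 and 0.10, adjusted p = 1.36e-08, 6.16e-07 and 9.98e-07). Relative to the median of chromosome 2 the values were -0.55 in the combined group, -0.793 in siARID1A and -0.348 in YTHDF1 KO. CENPF, a kinetochore and nuclear matrix protein, averaged 168 ± 17 CPM in the combined group, 168 ± 18.9 in siARID1A, 207 ± 18.2 in YTHDF1 KO and 316 ± 11.5 in WT, and fell in each. NDC80 and NUF2, which form the microtubule-binding arm of the outer kinetochore, and the kinetochore kinesin CENPE were called in siARID1A and in the combined group. In YTHDF1 KO, NDC80 (-0.14, adjusted p = 0.377) and NUF2 (-0.21, adjusted p = 0.0749) were not called. CENPE was (-0.22, adjusted p = 0.0422), but lost the call in 13 alternatives, among them leaving out WT replicate 2 (adjusted p = 0.101) or 3 (0.205) and any 1 of the YTHDF1 KO libraries (0.0762 to 0.137).

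Condensins, which compact mitotic chromosomes, held the member with the largest fall in siARID1A, SMC2. SMC2 had 71.1, 73.3 and 73.5 CPM in the combined group, 53, 55.6 and 49.2 in siARID1A, 86.1, 82.1 and 84.9 in YTHDF1 KO, and 129, 148 and 146 in WT. The groups did not overlap, and siARID1A was the lowest. SMC2 lies on chromosome 9, whose median was -0.406 in siARID1A, and relative to it SMC2 stood at -1.02. SMC2 (ENSG00000136824, chr9:104094260-104141417), a core ATPase of both condensins, stood at 51.5% of WT in the combined group (log2 fold change -0.96, SE 0.065, adjusted p = 2.57e-11), at 37.3% in siARID1A (log2 fold change -1.42, SE 0.082, adjusted p = 6.84e-14) and at 59.9% in YTHDF1 KO (log2 fold change -0.74, SE 0.067, adjusted p = 3.49e-09). SMC4 had 115, 132 and 126 CPM in the combined group, 103, 106 and 94.3 in siARID1A, 163, 145 and 157 in YTHDF1 KO, and 174, 227 and 196 in WT. SMC4 (ENSG00000113810, chr3:160399274-160434962), its partner, followed the same order, with log2 fold changes of -0.68 in the combined group, -0.97 in siARID1A and -0.36 in YTHDF1 KO (adjusted p = 2.93e-07, 1.58e-09 and 0.00118). In YTHDF1 KO the SMC4 value was -0.24 (adjusted p = 0.0134) without WT replicate 2.

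NCAPH, the kleisin subunit of condensin I, showed another order. NCAPH had 40.5, 47.4 and 40.9 CPM in the combined group, 63.5, 59.5 and 52.4 in siARID1A, 45.9, 49.5 and 49.4 in YTHDF1 KO, and 92.8, 86.6 and 83.7 in WT. The siARID1A libraries lay between WT and the other groups, and the combined and YTHDF1 KO libraries overlapped. NCAPH (ENSG00000121152, chr2:96335787-96373845) fell most in the combined group (log2 fold change -1.03, SE 0.086, adjusted p = 1.13e-10), then in YTHDF1 KO (log2 fold change -0.86, SE 0.057, adjusted p = 3.77e-09), and least in siARID1A (log2 fold change -0.59, SE 0.093, adjusted p = 1.98e-06). Like BUB1 it lies on chromosome 2. Relative to that chromosome's median it stood at -0.592 in siARID1A and -0.457 in YTHDF1 KO, the opposite order. NCAPD2, of the same complex, had 179.8 ± 15.5 CPM in the combined group, 189 ± 26.4 in siARID1A, 247 ± 4.47 in YTHDF1 KO and 329 ± 18.3 in WT, and was called lower in each. NCAPG, the third condensin I subunit listed, was called lower in each group as well, but its call in YTHDF1 KO (-0.24, adjusted p = 0.0241) was lost without WT replicate 1 (adjusted p = 0.0967) or 3 (0.0871) and without YTHDF1 KO replicate 1 (0.0721) or 3 (0.108).

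TOP2A, the topoisomerase that untangles sister chromatids, and MKI67, which coats mitotic chromosomes and is the Ki-67 antigen, had the highest mean CPM of the members in WT and in siARID1A. TOP2A had 517, 613 and 578 CPM in the combined group, 561, 544 and 462 in siARID1A, 639.6, 638 and 666 in YTHDF1 KO, and 743, 791 and 791 in WT. TOP2A (ENSG00000131747, chr17:40388516-40417950) lay below WT in all 9 changed libraries, with log2 fold changes of -0.44 in the combined group, -0.57 in siARID1A and -0.26 in YTHDF1 KO (adjusted p = 4.76e-05, 2.49e-06 and 0.0112). The last call was lost with library totals (adjusted p = 0.0894). MKI67 had 262, 365 and 371 CPM in the combined group, 355, 296 and 264 in siARID1A, 463, 392 and 484 in YTHDF1 KO, and 630.2, 582 and 595 in WT. The MKI67 libraries (ENSG00000148773, chr10:128096659-128126385) of the combined group and siARID1A overlapped each other and lay below YTHDF1 KO, which lay below WT. Log2 fold changes were -0.85 in the combined group, -0.98 in siARID1A and -0.43 in YTHDF1 KO (adjusted p = 3.06e-05, 1.03e-05 and 0.0118), and the call in YTHDF1 KO was lost without WT replicate 2 (adjusted p = 0.0642) or YTHDF1 KO replicate 2 (0.0536).

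**Figure D4:**
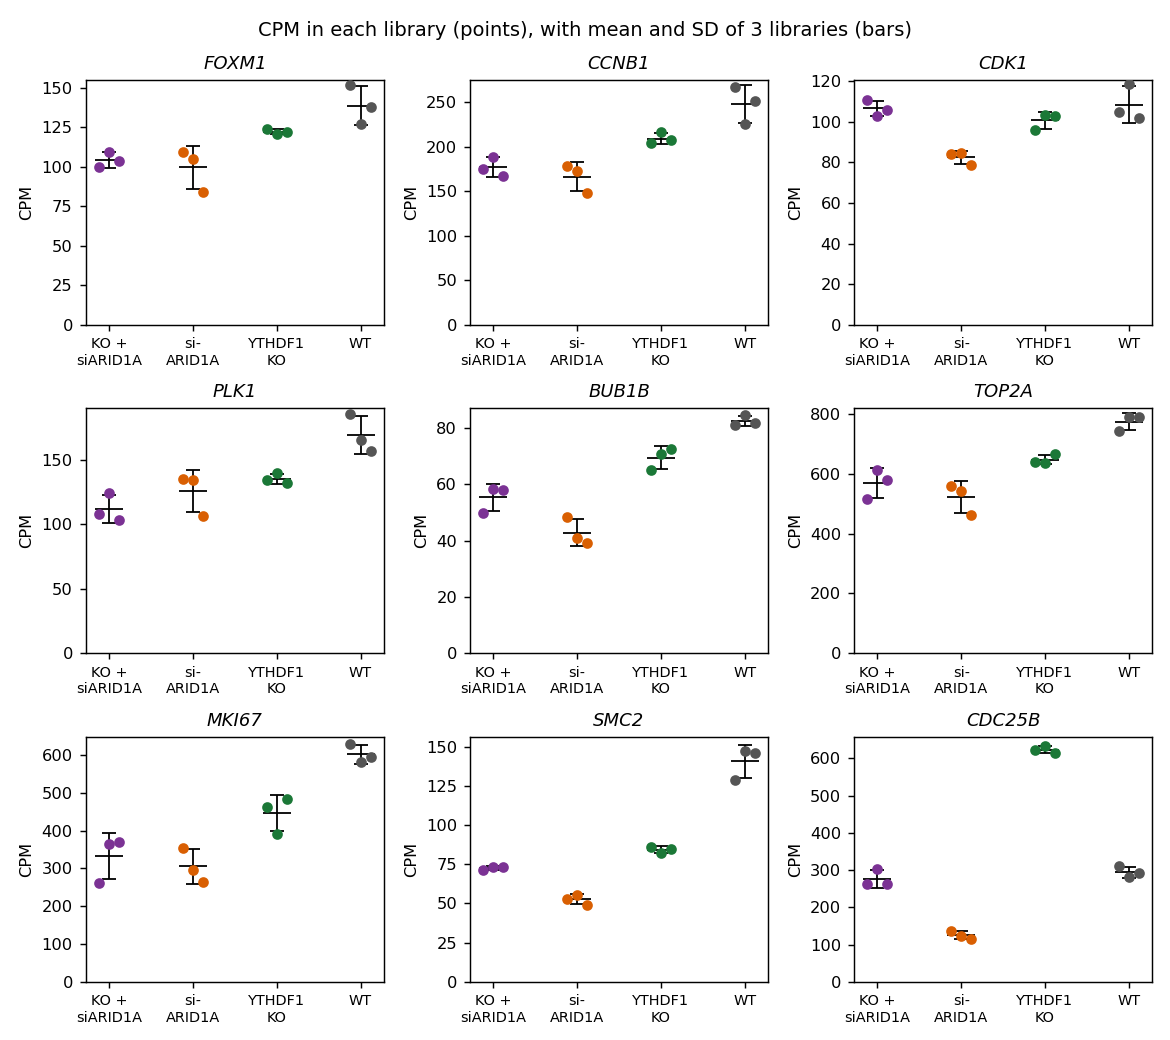
CPM of 9 members in each library (points), with the mean and SD of 3 libraries (bars), for the combined group, siARID1A, YTHDF1 KO and WT, each axis starting at 0. SMC2 is lowest in siARID1A (49.2 to 55.7 CPM), and CDC25B is highest in YTHDF1 KO (614 to 633 CPM).

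Among spindle and cytokinesis genes, ECT2, the exchange factor that activates RhoA at the division plane, was the one that did not follow the module. ECT2 had 345, 356 and 349 CPM in the combined group, 242, 227 and 226 in siARID1A, 355, 357 and 364 in YTHDF1 KO, and 261, 296 and 316 in WT. The combined and YTHDF1 KO libraries all lay above WT, and the siARID1A libraries all lay below it. ECT2 (ENSG00000114346, chr3:172750682-172821474) rose in the combined group (log2 fold change 0.27, SE 0.082, adjusted p = 0.00248) and in YTHDF1 KO (log2 fold change 0.30, SE 0.082, adjusted p = 0.00112), and fell in siARID1A (log2 fold change -0.33, SE 0.086, adjusted p = 0.000513). KIF2C had 32.6, 35.8 and 35 CPM in the combined group, 45.1, 41.3 and 35.5 in siARID1A, 37.3, 39.2 and 36.4 in YTHDF1 KO, and 48, 46.8 and 49.1 in WT. KIF2C (ENSG00000142945, chr1:44739818-44767767), a kinesin that depolymerises microtubules at kinetochores, was lowest in the combined group (log2 fold change -0.48, SE 0.045, adjusted p = 3.58e-05) and fell in YTHDF1 KO (log2 fold change -0.35, SE 0.037, adjusted p = 0.00142). Its fall in siARID1A (-0.24, adjusted p = 0.0214) was -0.15 (adjusted p = 0.169) without siARID1A replicate 3, and the call was also lost without WT replicate 3 (0.0508).

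KIF11, the kinesin that pushes spindle poles apart, averaged 86.9 ± 7.76 CPM in the combined group, 75.1 ± 8.34 in siARID1A, 103 ± 3.86 in YTHDF1 KO and 131 ± 7.87 in WT, and fell in each. KIF20A, a kinesin of the spindle midzone, fell in each as well, while KIF23, the kinesin of centralspindlin, and anillin (ANLN) were called lower in siARID1A and the combined group and not called in YTHDF1 KO. With library totals the combined-group call of KIF23 was lost (-0.089, adjusted p = 0.312). NUSAP1 and PRC1 had few counts, 1.31 ± 0.319 and 3.23 ± 0.863 CPM in WT, and 62.2% and 57.6% of their exonic bases are shared with another annotated gene on the same strand. Their counts are therefore uncertain, and they stood at 1.05 and 2.23 CPM in the combined group. Shorter overlaps touch NCAPG (33.1% of exonic bases, opposite strand), SMC4 (18.5%, opposite), FOXM1 (15.9%, opposite), PLK1 (11.6%, opposite) and BUB1B (10.2%, same strand), and the strand setting of the counting is not given in the sources used here.

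FOXM1 (ENSG00000111206, chr12:2857681-2877155), the transcription factor of the module, fell in siARID1A and in the combined group. FOXM1 had 99.5, 109 and 104 CPM in the combined group, 109.5, 105 and 84.3 in siARID1A, 124, 121 and 122 in YTHDF1 KO, and 152, 127 and 138 in WT. Each changed library lay below WT. FOXM1 was called in the combined group (log2 fold change -0.41, SE 0.085, adjusted p = 0.00019) and in siARID1A (log2 fold change -0.48, SE 0.14, adjusted p = 4.48e-05), and not in YTHDF1 KO (log2 fold change -0.18, SE 0.076, adjusted p = 0.082).

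Levels per length set the members apart from each other. In CPM per kilobase of annotated exon, WT cells had 120.4 of TOP2A, 97.1 of CCNB1, 81.7 of TPX2 and 74.6 of CDC20, against 4.29 of CDC25C and 4.63 of NDC80. In YTHDF1 KO, CDC25B had the highest level of the module on this scale, 144 CPM per kilobase, against 68.3 in WT. The order of the group means was WT, YTHDF1 KO, combined, siARID1A from high to low in 19 members, and WT, YTHDF1 KO, siARID1A, combined in another 10. The 19 include CCNB1, BUB1B and SMC2, and in many of them the combined and siARID1A libraries overlapped. The share of all genes with either order was not counted, so these orders are not set apart from those of other genes.

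In the cells with YTHDF1 KO, siARID1A went with a fall of fewer members, and ARID1A itself fell less there (log2 fold change -1.56) than with siARID1A in WT cells (-1.95). Against YTHDF1 KO, 24 of 42 members were lower in the combined group (10.9% of all genes were) and none was higher (12.5% of all genes). The median was -0.24 over the members and 0.012 over all genes. CDC25B fell most, to 276 ± 23.2 CPM in the combined group, against 623 ± 9.16 in YTHDF1 KO (log2 fold change -1.18, SE 0.07, adjusted p = 2.79e-11). CDC20 followed with 103 ± 5.95 CPM in the combined group and 158 ± 8.54 in YTHDF1 KO (log2 fold change -0.62, SE 0.065, adjusted p = 0.00224), and AURKB with 37.4 ± 2.62 CPM in the combined group and 51.5 ± 5.52 in YTHDF1 KO (log2 fold change -0.46, SE 0.10, adjusted p = 0.00292). The count was 14, 15 and 13 without YTHDF1 KO replicates 1, 2 and 3, and 11 and 15 without combined replicates 1 and 3, while it was 27 without WT replicate 2. Of all genes called, 53.5% were higher, and 63.5% with library totals, under which 16 members were lower.

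**Figure D5:**
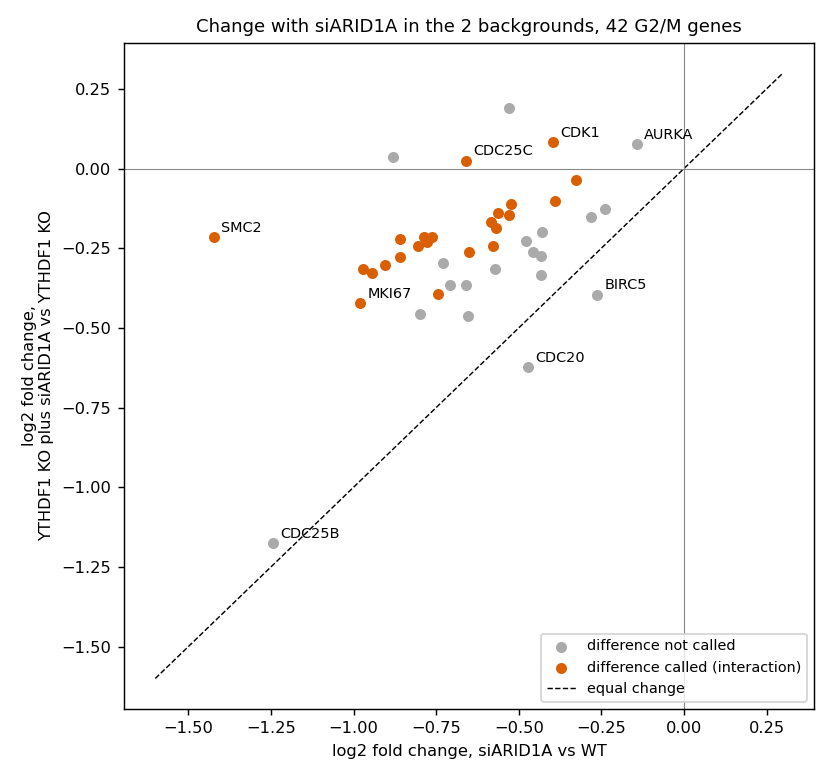
Log2 fold change with siARID1A against WT (across) and in cells with YTHDF1 KO (up), for 42 G2/M genes, with orange points where the difference between the changes was called and a dashed line of equal change. Orange points lie above the line, from SMC2 at -1.42 across and -0.22 up, while CDC25B, CDC20 and BIRC5 lie near or below it.

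The difference between these changes was tested itself, as the change with siARID1A in YTHDF1 KO cells minus the change in WT cells. For ARID1A itself it was 0.38 (SE 0.15, adjusted p = 0.0278), so the silencing was not equal in both backgrounds, and its part in the differences below was not tested. A higher level in the WT libraries alone also gives a difference above 0. In this design it cannot be told apart from a change with siARID1A that depends on the background. The difference was called above 0 in 23 of 42 members (8.87% of all genes) and called below 0 in none (8.22% of all genes). Called or not, it was below 0 in 2 members, with a median of 0.38 over the members and 0.024 over all genes. SMC2 led, with -0.22 in YTHDF1 KO cells and -1.42 in WT cells, a difference of 1.21 (SE 0.086, adjusted p = 5.13e-09). The median difference of chromosome 9, where SMC2 lies, was 0.391, and relative to it SMC2 stood at 0.815. For CDC25C the change was 0.025 in YTHDF1 KO cells and -0.66 in WT cells (difference 0.69, SE 0.18, adjusted p = 0.00974), and for SMC4 it was -0.31 in YTHDF1 KO cells and -0.97 in WT cells (difference 0.66, SE 0.15, adjusted p = 0.000325). By role, 6 of 7 condensin and chromosome genes, 5 of 6 cyclin and CDC25 genes, 4 of 5 checkpoint genes, 3 of 5 centromere genes, 3 of 8 kinase and passenger complex genes and 2 of 8 spindle genes were called. CDC25B was not (0.067, adjusted p = 0.744), with a change of -1.18 in YTHDF1 KO cells and -1.24 in WT cells and an SE of the difference of 0.11. The count was 14 without YTHDF1 KO replicate 1, 14 without siARID1A replicate 3 and 12 without combined replicate 2. It was 23 without WT replicate 2. Of the 23 calls, 12 were kept in every alternative run.

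Relative to siARID1A, more members were higher than lower in the combined group. In the combined group 12 members were higher than in siARID1A (18.2% of all genes were) and 3 were lower (17.2% of all genes), with a median of 0.11 over the members and 0.015 over all genes. The largest rises were those of CDC25B, with 276 ± 23.2 CPM in the combined group and 124 ± 10.9 in siARID1A (log2 fold change 1.15, SE 0.10, adjusted p = 9.42e-12), of ECT2, with 350.0 ± 5.73 CPM in the combined group and 232 ± 8.47 in siARID1A (log2 fold change 0.59, SE 0.033, adjusted p = 2.49e-07), and of SMC2, with 72.6 ± 1.32 CPM in the combined group and 52.6 ± 3.23 in siARID1A (log2 fold change 0.47, SE 0.053, adjusted p = 9.46e-06). Those that fell were BUB1 (log2 fold change -0.59, SE 0.10, adjusted p = 1e-06), NCAPH (log2 fold change -0.44, SE 0.11, adjusted p = 0.000113) and KIF2C (log2 fold change -0.24, SE 0.11, adjusted p = 0.0307). All of them were also lower with YTHDF1 KO against WT, as were 25 of the 42 members. BUB1 and NCAPH lie on chromosome 2, whose median was -0.423 in the combined group against siARID1A. Relative to it BUB1 stood at -0.165 and NCAPH at -0.021. The KIF2C call was lost without siARID1A replicate 1 (-0.15, adjusted p = 0.231) or 2 (adjusted p = 0.084), without combined replicate 1 (0.133) or 3 (0.0631) and with library totals (0.15), and 7 members were lower without siARID1A replicate 3. Without WT replicate 2 the counts were 3 lower and 12 higher. With library totals 18 were higher and 2 lower, and 62.2% of all genes called were higher, against 51.3%. FOXM1 was not called (0.066, adjusted p = 0.591), and its difference was -0.039 without siARID1A replicate 3.

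Set against each other, siARID1A cells had less of the module than YTHDF1 KO cells. In siARID1A 31 members were lower (22.4% of all genes were) and 2 were higher (22.8% of all genes), with a median of -0.33 over the members and -0.0075 over all genes. CDC25B differed most, with 124 ± 10.9 CPM in siARID1A and 623 ± 9.16 in YTHDF1 KO (log2 fold change -2.33, SE 0.074, adjusted p = 1.55e-17). BUB1B (log2 fold change -0.70, SE 0.10, adjusted p = 1.73e-07) and SMC2 (log2 fold change -0.68, SE 0.055, adjusted p = 1.88e-08) came next. BUB1 (log2 fold change 0.32, SE 0.09, adjusted p = 0.00105) and NCAPH (log2 fold change 0.28, SE 0.089, adjusted p = 0.00724) were the 2 higher members. Both lie on chromosome 2, whose median was 0.412 in this comparison, and relative to it BUB1 stood at -0.087 and NCAPH at -0.135, so the direction turned. Of the 38 members outside chromosomes 2 and 9, 30 were lower and none was higher (23.5% and 20.6% of all genes outside them). The NCAPH call was lost without siARID1A replicate 1 (adjusted p = 0.0657).

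BUB1, CENPA and NCAPH lie on chromosome 2 and SMC2 lies on chromosome 9, and both chromosomes shifted as a whole. Against WT, the median log2 fold change of 1231 tested genes of chromosome 2 was -0.42 in the combined group, 0.0065 in siARID1A and -0.405 in YTHDF1 KO. For 712 genes of chromosome 9 it was -0.38 in the combined group, -0.41 in siARID1A and -0.36 in YTHDF1 KO. For 16581 genes elsewhere it was 0.029 in the combined group, 2.01e-05 in siARID1A and 0.0225 in YTHDF1 KO. Relative to their chromosome's median, BUB1, CENPA, NCAPH and SMC2 stood at -0.626, -0.55, -0.612 and -0.572 in the combined group. In siARID1A they stood at -0.462, -0.793, -0.592 and -1.02, and in YTHDF1 KO at -0.376, -0.348, -0.457 and -0.38. In the combined group against siARID1A the values relative to chromosome 2 were -0.165 for BUB1, 0.24 for CENPA and -0.021 for NCAPH. The difference of SMC2 between backgrounds was 0.815 relative to chromosome 9. Among the 38 members of other chromosomes, 31 were lower in the combined group, 36 in siARID1A and 21 in YTHDF1 KO against WT (22.9%, 21.9% and 17.1% of all genes outside these chromosomes). In the combined group 22 of the 38 were lower than in YTHDF1 KO (10.7% of all such genes), and 1 was lower and 11 higher than in siARID1A (14.6% and 19.2% of all such genes). The part that the shifts of chromosomes 2 and 9 have in the changes of these 4 genes was not tested.

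Other genes of the same processes were more often lower than higher. Their lists were chosen with earlier results of these data known, so they are not independent of the module. The shares of all genes called lower were 25.9% in the combined group, 23% in siARID1A and 20.8% in YTHDF1 KO. The shares called higher were 25.6%, 22.1% and 19.6%. Of 37 other spindle, cytokinesis and mitotic genes, 32 were lower in the combined group, 30 in siARID1A and 23 in YTHDF1 KO against WT, with 0, 0 and 1 higher, so that the shares lower were 86.5%, 81.1% and 62.2%. MELK, a kinase with peak expression in mitosis and a gene of chromosome 9 (-1.16, adjusted p = 6.72e-11 in siARID1A), and NCAPG2 of condensin II (-0.85, adjusted p = 1.1e-09) were among those with the smallest p. Of 33 other kinetochore, centromere and cohesion genes, 18, 24 and 9 were lower in these groups and 2, 1 and 1 were higher, with shares lower of 54.5%, 72.7% and 27.3%, the last near that of all genes. HJURP, the chaperone that loads CENPA and a gene of chromosome 2, stood at -1.24 in the combined group and at -1.13 in YTHDF1 KO against WT (adjusted p = 1.45e-11 and 1.03e-10). Of 41 DNA replication genes, 25, 35 and 16 were lower (61%, 85.4% and 39%) and 2, 0 and 2 higher. MCM5, of the replicative helicase, fell in the combined group (log2 fold change -0.69) and in siARID1A (-0.91), with both called (adjusted p = 4.62e-08 and 9.45e-10). Of 32 genes of mitotic entry and exit, 12, 19 and 10 were lower (37.5%, 59.4% and 31.2%) and 5, 2 and 3 higher.

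The factors that act on G2/M promoters and on the G1 restriction point moved in both directions, as did all genes tested. Of 22 genes of transcriptional control, 7, 9 and 7 were lower in the combined group, siARID1A and YTHDF1 KO (31.8%, 40.9% and 31.8%), and 4, 1 and 6 were higher (18.2%, 4.55% and 27.3%). Of all genes tested, 25.9%, 23% and 20.8% were lower in these groups, and 25.6%, 22.1% and 19.6% were higher. MYBL2, which encodes B-MYB, had 127 ± 8.47 CPM in the combined group, 121 ± 18.5 in siARID1A, 139 ± 5.10 in YTHDF1 KO and 174 ± 12.6 in WT, and was lower in each (adjusted p = 0.000155, 3.45e-05 and 0.00534). NFYB, a subunit of NF-Y, was higher in the combined group (0.60, adjusted p = 2e-06) and in YTHDF1 KO (0.51, adjusted p = 2.69e-05). RBL1, the p107 pocket protein of DREAM, was lower in siARID1A (-1.10, adjusted p = 1.34e-09) and in the combined group (-0.97, adjusted p = 4.67e-09).

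CDKN1A encodes p21, an inhibitor of cyclin-dependent kinases. CDKN1A had 233, 221 and 225 CPM in the combined group, 409, 482 and 486 in siARID1A, 175, 176 and 176 in YTHDF1 KO, and 159, 156 and 159.6 in WT. The siARID1A libraries lay far above the others, and the combined libraries lay between. CDKN1A was higher in the combined group (log2 fold change 0.52, SE 0.025, adjusted p = 8.86e-07) and in siARID1A (log2 fold change 1.54, SE 0.082, adjusted p = 1.55e-14), and was not called in YTHDF1 KO (log2 fold change 0.15, SE 0.011, adjusted p = 0.0825). Its change with siARID1A was 0.36 in YTHDF1 KO cells and 1.54 in WT cells, a difference of -1.17 (adjusted p = 6.8e-09). Of 12 kinase inhibitors and G1 regulators tested, 6, 6 and 5 were lower in the combined group, siARID1A and YTHDF1 KO against WT (50%, 50% and 41.7%). In these groups 3, 4 and 2 were higher (25%, 33.3% and 16.7%). Among G1 cyclins and kinases, CCND3 was lower in YTHDF1 KO (-2.03, adjusted p = 6.13e-17), and CCNE1 was higher in the combined group (1.00, adjusted p = 8.74e-10) and in YTHDF1 KO (1.14, adjusted p = 1.14e-10). CCND1 was lower in the combined group (-1.05, adjusted p = 1.02e-11) and in siARID1A (-0.52, adjusted p = 1.93e-06). The part that any of these has in the module's levels was not tested.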

How the data were processed

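Total RNA of A549 cells was made into stranded libraries, per the labels' protocols. The authors deposited 1 table of raw gene counts, with whole numbers for 60617 Ensembl identifiers in 12 libraries. The submitters' processing notes name edgeR 3.32.1, featureCounts 2.0.1, STAR 2.7.0d and Trim Galore 0.6.6, with the build GRCh38. The annotation release and strand setting are not given in the sources used here, so counts of overlapping genes are uncertain. Groups follow the library names. Symbols matched 60261 identifiers, and GENCODE 29 gave 58542 positions and exon lengths.

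All 12 libraries (30220717 to 45042635 counts) were fitted together in R 4.3.3 with edgeR 4.0.16 (limma 3.58.1), with 1 coefficient per group, filterByExpr (18524 genes tested, 42093 left out), TMM factors from 0.9117 to 1.055, and the robust two-sided quasi-likelihood F test with Benjamini-Hochberg adjustment over all genes tested and a threshold of 0.05. The biological coefficient of variation was 9.44%. CPM uses TMM-scaled totals. Standard errors come from the replicate SDs of log2 CPM with a prior count of 2. The test was checked on simulated counts. Alternatives were DESeq2 1.42.0, RLE factors, library totals, no filter, fits of only the compared groups, a replicate block, each library left out, and members outside chromosomes 2 and 9. The members, the other lists and the rule for named genes were chosen with earlier results of these data known. By that rule, values in all libraries are given for FOXM1, CCNB1, CDK1, PLK1, BUB1B, TOP2A, MKI67 and the called members with the most extreme log2 fold changes (up to 3 each way) of each comparison, and of the other lists up to 3 called genes with the smallest p, plus CDKN1A and MYBL2; another gene of that rule is not reported here. Promoters are RefSeq sequences on GRCh38.p14.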

Additional observations from a re-analysis of the deposited data

Results flagged for a closer look

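The change with siARID1A differed between YTHDF1 KO cells and WT cells in 23 of the 42 G2/M genes by edgeR's test of the difference itself, and in each the difference (log2 fold change in YTHDF1 KO cells minus that in WT cells) was above 0. Among cyclins, CDK1 and CDC25 genes, the difference was 0.38 for CCNA2, 0.33 for CCNB1, 0.42 for CCNB2, 0.48 for CDK1 and 0.69 for CDC25C, with adjusted p from 0.00115 to 0.0372. Among checkpoint genes, the difference was 0.62 for BUB1B, 0.29 for BUB3, 0.41 for MAD2L1 and 0.39 for TTK, with adjusted p from 0.000452 to 0.0297. Among kinase and passenger complex genes, the difference was 0.58 for PLK4, 0.55 for INCENP and 0.35 for TPX2, with adjusted p from 0.00316 to 0.0409. Among centromere genes, the difference was 0.57 for CENPA, 0.55 for CENPE and 0.60 for CENPF, with adjusted p from 0.000832 to 0.00592. Among condensin and chromosome genes, the difference was 0.42 for NCAPH, 0.64 for NCAPG, 1.21 for SMC2, 0.66 for SMC4, 0.38 for TOP2A and 0.56 for MKI67, with adjusted p from 5.13e-09 to 0.0422. Among spindle genes, the difference was 0.56 for KIF11 and 0.29 for ECT2, with adjusted p from 0.000951 to 0.0454. The changes behind these values ran from -0.42 for MKI67 to 0.082 for CDK1 in YTHDF1 KO cells, and from -1.42 for SMC2 to -0.33 for ECT2 in WT cells. In WT cells all 23 genes were called lower with siARID1A. ARID1A itself had a difference of 0.38 (adjusted p = 0.0278). A higher level in the WT libraries alone cannot be told apart from a siARID1A change that depends on the background. Of the 23 calls, 12 were kept in every alternative run. The call of ECT2 was lost in 14 alternatives, those of MKI67 and TPX2 in 11 each, that of CCNB1 in 8, that of BUB3 in 7, those of TTK and TOP2A in 4 each, those of CCNA2 and CCNB2 in 3 each, and those of MAD2L1 and NCAPH in 1 each. TPX2 stood at 0.23 (adjusted p = 0.124) without siARID1A replicate 3.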

How the results depend on the processing

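Of 198 calls of members over the 6 contrasts and the difference between backgrounds, 148 were kept in every alternative run and 0 changed sign. Leaving out 1 library at a time gave 11 to 27 members lower in the combined group than in YTHDF1 KO, 2 to 7 lower than in siARID1A and 12 to 24 with a difference between backgrounds. The ranges were 20 to 26 for YTHDF1 KO, 37 to 41 for siARID1A and 34 to 36 for the combined group against WT, 27 to 31 for siARID1A against YTHDF1 KO, and 8 to 14 higher in the combined group than in siARID1A. Counted over members outside chromosomes 2 and 9, 1 was lower in the combined group than in siARID1A, since BUB1 and NCAPH are left out. Replicate numbers did not pair the libraries: over 18 pairs of groups and numbers the correlation of deviations ran from -0.0425 to 0.0334. A replicate block left 25, 40 and 35 members lower than WT in YTHDF1 KO, siARID1A and the combined group, 22 and 3 lower in the combined group than in YTHDF1 KO and siARID1A, 31 lower in siARID1A than in YTHDF1 KO, and 21 with a difference between backgrounds. With DESeq2 these counts were 23, 40, 35, 24, 3, 30 and 22. CDK1 in the combined group against WT changed sign with library totals (0.11) and without WT replicate 2, with a range of -0.0685 to 0.0522 over the libraries left out. FOXM1 in the combined group against siARID1A did without siARID1A replicate 3, with a range of -0.039 to 0.14. None of these was called, and the cause was not tested. Depth was at least 30220717 counts a library, and NUSAP1 and PRC1, with 476 and 1070 counts over all 12 libraries, were the members that few counts limit.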
